A study of Mus musculus with 34 samples.

Results

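A set of 10 genes of glutathione conjugation and of the response to oxidants was followed across 34 mouse expression arrays. They are 5 glutathione transferases (Gstm1, Gstm2, Gstm5, Gsta4 and Gstp1) and 5 genes that the transcription factor NRF2 is known to switch on (Nqo1, Hmox1, Gclc, Gclm and Txnrd1). They were chosen by gene symbol and were read by 16 of the 45281 probes of the Illumina MouseWG-6 v2 array, which named 19057 genes. Earlier results of these arrays, among them a rise of Gstm2 in C17.2 cells with CEBPB, were known when the genes were chosen. That contrast is therefore described here without p-values, and nothing is drawn from its calls.

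The study asked what the transcription factors STAT3 and CEBPB do to the expression of mouse neural stem cells. Retroviral vectors were put into 2 kinds of mouse cell. C17.2 is a neural stem cell line that has been immortalised, and NSC are primary cells taken from E13.5 telencephalon. Each kind received the pBabe control vector, a vector for STAT3C (a constitutively active mutant of STAT3), a vector for CEBPB, or the STAT3C and CEBPB vectors together. C17.2 had 4 arrays in each of the 4 groups, and NSC had 5 control, 4 STAT3C, 4 CEBPB and 5 double-vector arrays, each from 200 ng of total RNA. Every group, the controls included, carried a retroviral vector, and no untransduced cells were analysed here. The labels do not say that arrays came from separate cultures, so p-values measure only the spread between these arrays. For the NSC arrays with both vectors, 1 label names STAT3 where others name STAT3C, and STAT3C is used here.

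Values are log2 normalised signals, on which a difference of 1 is a doubling, and a probe was detected where its detection p was below 0.05. In C17.2, 9 of the 10 genes were tested among 9699 genes, since Gsta4 was detected on 1 of 16 C17.2 arrays, and in NSC all 10 were tested among 10858 genes. A gene was called at a Benjamini-Hochberg adjusted p below 0.05 from limma's moderated test, adjusted over all genes tested.

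Glutathione transferases join glutathione to electrophiles, which makes these easier to export from the cell. NRF2, the product of Nfe2l2, is held by KEAP1 and degraded in resting cells. When oxidants or electrophiles modify KEAP1, NRF2 accumulates, pairs with small MAF proteins and binds antioxidant response elements beside its target genes, which include several glutathione transferases. In brain, glial cells are known as a main site of this response.

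Some arrays stood apart within their groups. Among the C17.2 arrays, 50.2% of the variance lay on the first principal component, which put the 4 controls at -45.4 to -21.3 and split each transduced group between the controls' side of 0 and the other side. The C17.2 controls alone were on slide 1, so a difference from those controls cannot be told apart from slide. In each cell type, the 3 comparisons with control share the same control arrays. In NSC, replicate 4 of every group, all on slide 6, gave no signal for Xist, the RNA of the inactive X chromosome, while the other 14 arrays did. Slide 6 alone joins slides 4 and 5 in the NSC fit. Without those 4 arrays the link between them is control replicate 5 and double-vector replicate 5, so a difference from control with CEBPB or both vectors then rests on 1 array a group. Those 4 arrays lay at -49.1 to -45.3 on the first component of NSC, and the other 14 at -14.6 to 21.6. The probes for Stat3 and Cebpb themselves passed no test against control in either cell type, at log2 differences between -0.53 and 0.70, and whether these mouse probes read the vectors' inserts was not tested. Nes, Sox2 and Vim, which neural stem cells are known to express, were detected on every array of both cell types. Of 11 neural stem and radial glia markers, 7 were detected on every NSC array but 5 on every C17.2 array. Fabp7, Pax6, Hes5 and Msi1 were detected on no C17.2 array. Pax6 and Msi1 were detected on no NSC array either, and Hes5 on none with CEBPB or both vectors. Fabp7 was on every NSC array. NSC arrays also carried Olig1, Olig2, Cspg4 and Cnp, genes of the oligodendrocyte lineage, on every array. Of the same list, Mog was detected on no NSC array and Sox10 on none with STAT3C, CEBPB or both. The astrocyte markers Aldh1l1, Gja1 and Aldoc were also detected on every NSC array.

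Gstm1, Gstm2 and Gstm5 encode mu-class transferases and lie together on chromosome 3, Gstm5 from 107895854 to 107898685, Gstm2 from 107981702 to 107986420 and Gstm1 from 108012250 to 108017973 (RefSeq, GRCm38.p6). Gclm lies on the same chromosome from 122245487 to 122267215. The promoters of 3 genes, each with a motif, were picked for print with the array values known. No Gclm difference between vectors was called in the main fits. Txnrd1, which also holds motifs, is not printed. Nothing is therefore read from which motif lies in which printed promoter. Gstm2 holds the C/EBP motif TTGCNNAA, while Gstm5 and Gclm hold TGACNNNGC, the core of the antioxidant response element. In Gclm the match is on the strand opposite to the one printed, so its capitals show the reverse complement. Each is the RefSeq stretch of 250 bases before to 50 after the annotated start, at chr3:107986371-107986670 on the minus strand, chr3:107895604-107895903 on the plus strand and chr3:122245307-122245606 on the plus strand, with the motif in capitals.
Gstm2: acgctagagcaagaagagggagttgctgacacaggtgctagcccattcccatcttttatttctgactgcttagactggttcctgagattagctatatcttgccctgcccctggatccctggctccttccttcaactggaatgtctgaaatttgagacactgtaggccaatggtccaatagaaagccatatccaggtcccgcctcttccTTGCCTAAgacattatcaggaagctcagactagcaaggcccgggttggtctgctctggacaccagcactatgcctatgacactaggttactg
Gstm5: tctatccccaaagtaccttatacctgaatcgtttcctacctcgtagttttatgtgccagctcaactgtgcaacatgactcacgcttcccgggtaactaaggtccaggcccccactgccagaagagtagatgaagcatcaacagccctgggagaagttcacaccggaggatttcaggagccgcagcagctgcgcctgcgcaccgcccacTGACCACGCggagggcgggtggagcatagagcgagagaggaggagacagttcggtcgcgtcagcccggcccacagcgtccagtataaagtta
Gclm: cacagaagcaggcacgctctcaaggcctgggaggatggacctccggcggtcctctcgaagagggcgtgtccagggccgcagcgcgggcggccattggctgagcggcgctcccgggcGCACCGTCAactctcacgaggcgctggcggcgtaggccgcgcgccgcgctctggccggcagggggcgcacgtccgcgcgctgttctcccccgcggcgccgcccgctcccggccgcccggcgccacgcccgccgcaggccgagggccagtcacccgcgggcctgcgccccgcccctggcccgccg
Promoters were at hand for 7 of the 10 genes (Gstm1, Gstm2, Gstm5, Gstp1, Gclm, Nqo1 and Txnrd1), Gstm1 and Txnrd1 with more than 1 start each. Both strands were searched for TGACNNNGC, for TTGCNNAA and for the STAT motif TTCNNNGAA, the last of which reads the same on both, and no matches in these genes overlapped. TGACNNNGC was in promoters of 3 of the 7 genes (Gstm5, Gclm and 1 of the 3 starts of Txnrd1), and in 12.4% of all 32851 promoters. TTGCNNAA was in that of Gstm2 alone among the 7, and in 10.8% of all promoters. TTCNNNGAA was found at 2 starts of Txnrd1, and in 8.3% of all promoters. For each motif, genes were counted at any of their starts but the background by single promoters. The shares are therefore not directly comparable. A match is a stretch of letters and no evidence of binding.

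Gstm2 was the member with the widest spread in C17.2, with a standard deviation of 1.94 over the 16 arrays against a median of 0.31 over all genes tested there. The controls read 6.07, 6.76, 7.64 and 7.26. The STAT3C arrays read 8.91, 9.79, 10.84 and 10.70, and the CEBPB arrays 11.62, 11.93, 9.72 and 11.17. The arrays with both vectors read 8.14, 12.04, 9.72 and 11.48. Every one of the 12 transduced arrays was above every control, which held upward for 0.691% of all genes tested and downward for 0.505%. Against each single group, 4.57% of genes did not overlap upward with STAT3C, 8.11% with CEBPB and 4.72% with both. These arrays include the CEBPB and control arrays that chose the gene, so nothing is read from those shares. The CEBPB mean was 4.18 above control (SE 0.73, 18.1-fold), and Gstm2 was 1 of 9 members called in that contrast, in which 1.62% of all genes were called. Because that contrast chose the genes, nothing is read from the count.

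**Figure D1:**
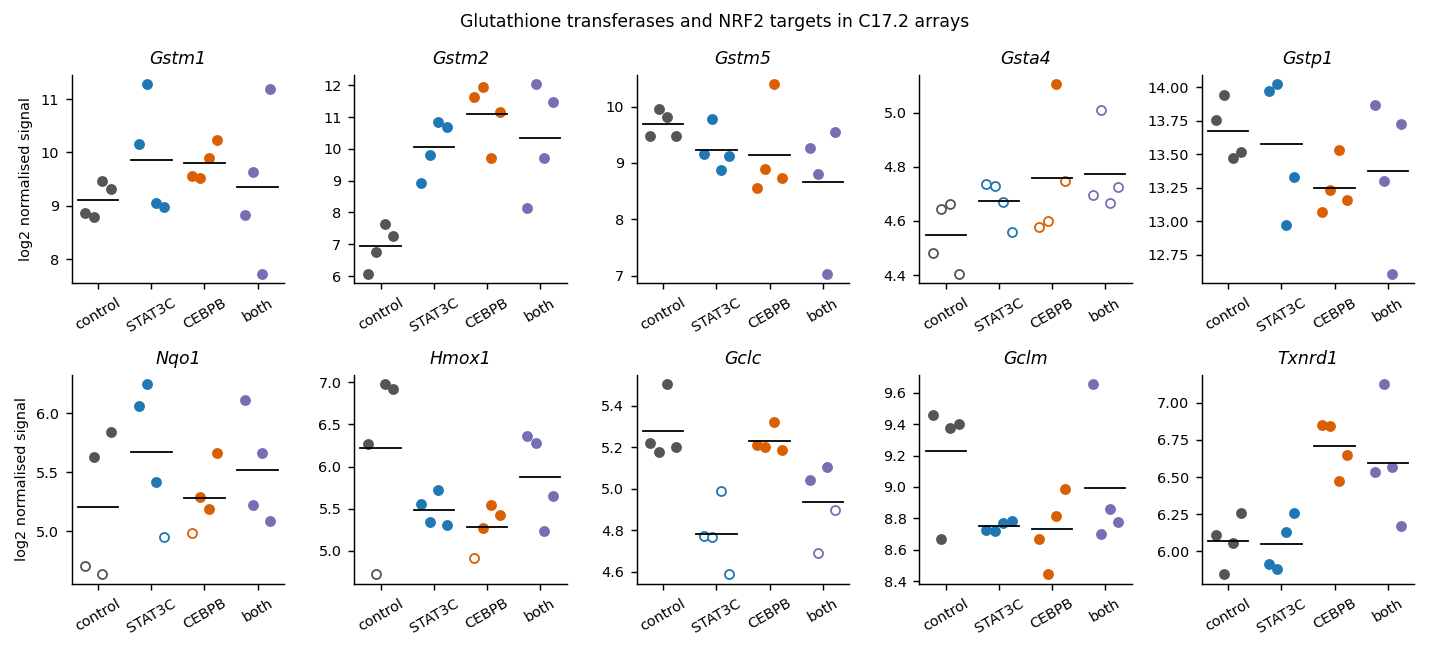
Log2 normalised signal of each gene on the 16 C17.2 arrays, by vector group (both, STAT3C with CEBPB), with 1 point per array and the group mean as a bar; open points were not detected, and each panel has its own axis. Gstm2 was above all 4 controls on every transduced array, while Gsta4 stayed near the bottom of the scale at 4.40 to 5.11.

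With STAT3C, the Gstm2 difference from the same controls was 3.13 (SE 0.73, 8.73-fold), and the limma adjusted p was 0.172. With both vectors it was 3.41 (SE 0.73, 10.6-fold), at an adjusted p of 0.05001. Neither was called, in contrasts where 0.0103% and 0.577% of genes were called. Both use the 4 controls of the contrast that chose Gstm2, so neither is independent of that choice. Against STAT3C alone, adding CEBPB gave a difference of 0.28 (SE 0.73, adjusted p = 0.955), in a contrast in which 0.186% of genes were called. Against CEBPB alone, both vectors gave a Gstm2 difference of -0.77 (SE 0.73), in groups that overlapped (adjusted p = 0.993). No gene was called there (0%), and 388 had an unadjusted p below 0.05. The departure of the double-vector arrays from the sum of the single-vector changes was -3.89 (SE 1.04). Both values set the double-vector arrays against the CEBPB arrays that chose Gstm2, so nothing is read from either. In limma's test of that departure, 0% of the 9699 genes were called and 1045 had an unadjusted p below 0.05.

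All 3 Gstm2 probes gave the same picture. The other probes had group means of 6.80 and 5.25 in controls and of 10.85 and 9.15 with CEBPB. The double-vector call turned on 1 array: without replicate 1 of that group, which read 8.14, the difference was 4.15 (SE 0.63, adjusted p = 0.0063). Of 8 fits that each left out 1 array, that 1 alone called it, and the highest adjusted p was 0.162. With slide as a random block the difference was 3.36 (adjusted p = 0.0276), and after quantile normalisation without the background model 3.60 (adjusted p = 0.0469). The correlation fitted within slides was -0.037, and the block cannot separate slide from control, as the controls alone were on slide 1. In the authors' deposited normalised values the Gstm2 differences were smaller, at 1.77 for STAT3C, 2.61 for CEBPB and 2.08 for both.

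**Figure D2:**
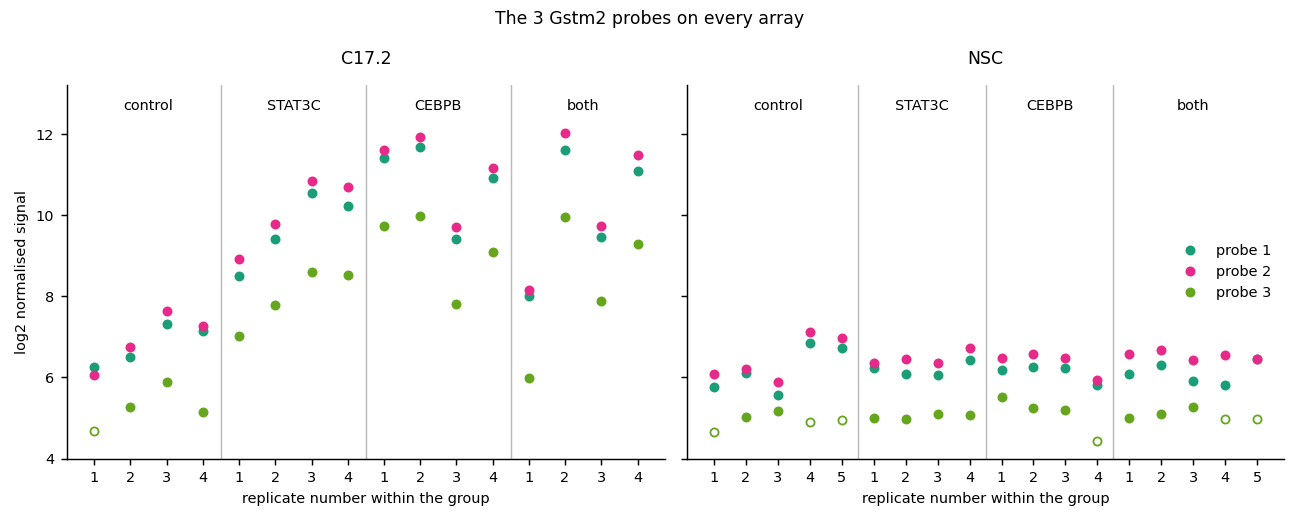
Log2 normalised signal of the 3 Gstm2 probes on every C17.2 and NSC array, grouped by vector, with open points where a probe was not detected. The probes rose and fell together over the C17.2 arrays, and all stayed between 4.44 and 7.11 in NSC.

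Gstm2 moved with the first principal component of the C17.2 arrays (Pearson r = 0.80 over 16 arrays, as a description; Gstm2 is itself 1 of the genes behind the component). The 5 transduced arrays on the controls' side of that component still read 8.14 to 11.48 for Gstm2, above all 4 controls. The 7 on the other side read 9.72 to 12.04. The mean deviation of chromosome 10 genes ran from -0.21 to -0.10 in controls, from -0.06 to 0.27 with CEBPB and from -0.08 to 0.35 with both. With STAT3C it ran from -0.18 to 0.12, and 2 of those 4 arrays lay within the controls' range. In each transduced group it was lower on the arrays on the controls' side of the component than on the others. With it as a covariate, the Gstm2 difference was 2.58 with STAT3C (SE 0.62, adjusted p = 0.211), 2.71 with CEBPB (SE 0.77) and 2.24 with both (SE 0.71, adjusted p = 0.303). As that mean alone set CEBPB and double-vector arrays apart from the controls, the fit cannot separate it from those vectors. The summed signal of 8 pericyte and fibroblast markers was 2909 to 4106 in C17.2 controls, 4274 to 15960 with STAT3C, 3150 to 12250 with CEBPB and 2480 to 24980 with both. Rgs5, Anpep and Lum, 3 of these markers, were detected on no C17.2 array. The sum of 7 endothelial markers was 38.96 to 120.8 in controls, 163.6 to 495.4 with STAT3C, 39.84 to 64.7 with CEBPB and 44.02 to 134.2 with both, and Cldn5 and Emcn were detected on none of these arrays. For 7 astrocyte markers it was 3611 to 5218 in controls, 4509 to 9420 with STAT3C, 3779 to 9368 with CEBPB and 5403 to 8681 with both, with Gfap and S100b detected on none. STAT3C arrays thus lay above the controls for the pericyte and fibroblast list and for the endothelial list, and double-vector arrays for the astrocyte list. Of the 7 astrocyte markers, only Gja1 was detected on every C17.2 array. For 8 oligodendrocyte lineage markers it was 380.7 to 9485 in controls, 140.9 to 6707 with STAT3C, 53.47 to 4846 with CEBPB and 60.15 to 4894 with both, with Olig1, Olig2 and Mog detected on none. The part of these lists in the Gstm2 result was not tested. In such bulk RNA, fewer cells with a transcript and less of it per cell cannot be told apart.

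**Figure D3:**
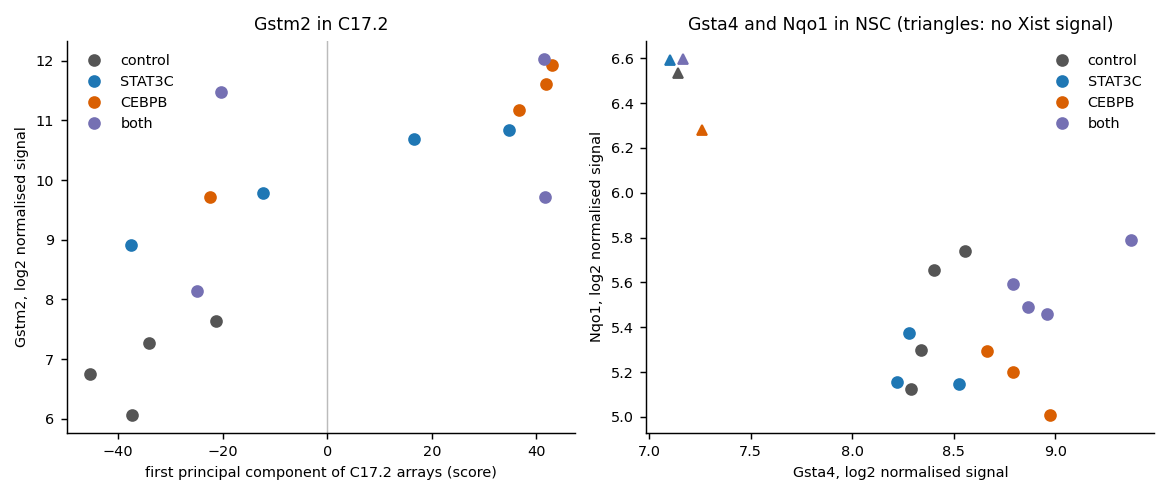
Left, Gstm2 log2 signal against the first principal component score of each C17.2 array, with a line at 0; right, Nqo1 against Gsta4 log2 signal on each NSC array, with triangles for the 4 arrays without Xist signal. On the left, the 5 transduced arrays below 0 lie above the controls; on the right, the 4 triangles stand apart at low Gsta4 and high Nqo1.

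In NSC the same gene stayed low. The Gstm2 controls read 6.08, 6.21, 5.88, 7.11 and 6.98, and the STAT3C arrays 6.36, 6.46, 6.35 and 6.72. The CEBPB arrays read 6.48, 6.57, 6.49 and 5.94, and the double-vector arrays 6.57, 6.67, 6.43, 6.55 and 6.44. All groups overlapped, and no fitted Gstm2 difference from control was called. The differences with slide in the fit were 0.13 with STAT3C (SE 0.13, adjusted p = 0.891), -0.72 with CEBPB (SE 0.19, adjusted p = 0.201) and -0.52 with both (SE 0.17, adjusted p = 0.114). Without slide in the fit the Gstm2 differences were -0.08 with CEBPB and 0.08 with both. In the fit of all 34 arrays, the double-vector change of Gstm2 was 3.15 larger in C17.2 than in NSC (SE 0.70, adjusted p = 0.0199), where 1.33% of genes were called. Without C17.2 double-vector replicate 2 that difference was 2.62 (adjusted p = 0.0561). The STAT3C change was 2.95 larger in C17.2 (SE 0.72, adjusted p = 0.142), where 0.0256% of genes were called. Without C17.2 STAT3C replicate 1 it was 3.31 (adjusted p = 0.0271). Of 17 fits that each left out 1 array, that 1 alone called it, and the highest adjusted p was 0.346. The CEBPB change was 4.04 larger (SE 0.72), a value that rests on the contrast that chose the gene. The other Gstm2 differences between cell types use the same C17.2 controls, so they are not independent of that choice either. No slide held both cell types, so slide and cell type cannot be told apart in these differences. In the joint normalisation of all arrays, control vector alone gave Gstm2 levels of 7.08 ± 0.65 in C17.2 (SD, n = 4) and 6.31 ± 0.56 in NSC (SD, n = 5), with a difference of 0.77 (SE 0.49, adjusted p = 0.197).

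The 5 genes whose profile over the 16 C17.2 arrays was most like Gstm2 were Ampd3 (Pearson r = 0.92), P2ry14 (0.92), Il15ra (0.92), Ppp2r5d (0.92) and Arhgap29 (0.91), given as a description. The arrays share the component above. Among the members, no other gene had a C17.2 pattern in which all transduced arrays stood above or below the controls.

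The other mu-class genes had other patterns; whether their probes also read related transcripts was not tested. Gstm1 in C17.2 read 8.87, 8.79, 9.46 and 9.32 in controls and 9.56, 9.52, 9.89 and 10.24 with CEBPB. Its STAT3C arrays ran from 8.98 to 11.28 and its double-vector arrays from 7.72 to 11.20. All 4 CEBPB arrays lay above the controls, as for 8.11% of all genes, in the contrast that chose the genes. No STAT3C array lay below the lowest control, and the double-vector arrays lay on both sides of the controls. The fitted Gstm1 differences from control were 0.76 with STAT3C (SE 0.60, adjusted p = 0.616) and 0.24 with both (SE 0.60, adjusted p = 0.865). A second, dimmer Gstm1 probe disagreed with the one used, being detected on 10 of 16 C17.2 arrays at a mean of 5.24 against 9.53. In NSC, Gstm1 control replicates 1 to 3 read 9.67, 9.64 and 9.64 and replicates 4 and 5, on slide 6, 10.98 and 10.81. With slide in the fit, no Gstm1 difference was called in NSC, and they ran from -0.14 to 0.16 over the 5 pairwise comparisons.

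Gstm5 had negative differences in C17.2, none of them called. Its controls read 9.48, 9.96, 9.82 and 9.49, and its double-vector arrays 9.27, 8.81, 7.03 and 9.55. The double-vector difference was -1.02 (SE 0.48, adjusted p = 0.277), and the groups overlapped. In NSC, Gstm5 was lower with both vectors than with CEBPB alone. The CEBPB arrays read 10.73, 10.75, 10.65 and 10.83 and the double-vector arrays 10.14, 10.29, 10.15, 10.64 and 10.21. All 5 double-vector arrays lay below all 4 CEBPB arrays, which held downward for 2.67% of genes. The fitted difference was -0.48 (SE 0.12, adjusted p = 0.0251). Within slide 5 it was -0.51 (SE 0.10, adjusted p = 0.00755), and within slide 6, where CEBPB had 1 array, -0.40. That call did not hold throughout: leaving out any one of replicates 1 to 3 of either group raised the adjusted p to between 0.0524 and 0.0820, and without slide in the fit the difference was -0.45 (adjusted p = 0.344).

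Gstm5 with both vectors was not called against the NSC controls, at -0.32 (SE 0.15, adjusted p = 0.299). Its departure from the sum of the single-vector changes was -0.62 (SE 0.17, adjusted p = 0.131). Without the 4 arrays that lacked Xist that departure was -0.66 (adjusted p = 0.0182), and without double-vector replicate 4 it was -0.68 (adjusted p = 0.0484). The departure was called in 1 of 18 fits that each left out 1 array, and the highest adjusted p was 0.283. With Xist signal as a term it was -0.50 (adjusted p = 0.0759), and the difference from CEBPB was -0.42 (SE 0.10, adjusted p = 0.0100).

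Gsta4 encodes an alpha-class transferase known for acting on 4-hydroxynonenal, a product of lipid peroxidation. It lies on chromosome 9 from 78191966 to 78209349 and separated the cell types. Its C17.2 probe was not detected on any control array, and on 1 of 16 arrays in all, CEBPB replicate 3 at 5.11. The NSC controls read 8.29, 8.34, 8.40, 7.14 and 8.55. Gsta4 was at least 7.57-fold higher in NSC than in C17.2 controls (adjusted p = 2.1e-09), a bound set by the lowest signal counted as detected, with fitted means of 8.06 in NSC and 4.55 in C17.2. Between the control groups 48.5% of all genes were called, and 3 of the 10 members, Gstp1 and Gclm higher in C17.2 and Gsta4 lower. The groups did not overlap for Gsta4, nor for 19.6% of all genes downward. Gstm1 was 1.01 lower in C17.2 and did not overlap either (-1.01, SE 0.43, adjusted p = 0.0547), and in the authors' deposited normalised values that difference was -0.81 (adjusted p = 0.0493).

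Within NSC, Gsta4 split by array rather than by vector. The 4 arrays without Xist read 7.14 (control), 7.10 (STAT3C), 7.26 (CEBPB) and 7.17 (both). The other 14 read 8.22 to 9.38, and the other 2 arrays of the same slide 8.55 and 9.38. The gap was thus also there within slide 6. With both vectors Gsta4 was not called against control, at 0.38 (SE 0.46, adjusted p = 0.749). With slide in the fit and those 4 arrays left out, the difference is double-vector replicate 5 at 9.38 against control replicate 5 at 8.55, with 1 array a group, and is not read as a test. Leaving out double-vector replicate 5 turned the difference to -0.45 (SE 0.32, adjusted p = 0.462). It was 0.93 without double-vector replicate 4 or control replicate 5, and 0.04 without control replicate 4. With Xist signal as a term beside slide, an alternative chosen after seeing the data that keeps all arrays, it was 0.38 (SE 0.15, adjusted p = 0.132).

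Gstp1, a pi-class transferase on chromosome 19 from 4035411 to 4037912, differed between the cell types. In the joint normalisation it was at 13.52 ± 0.22 in C17.2 controls (SD, n = 4) and 11.41 ± 0.48 in NSC controls (SD, n = 5). The difference of 2.11 (SE 0.25, 4.31-fold, adjusted p = 3.6e-08) was larger than the spread of the arrays, and the groups did not overlap, as was so upward for 17.9% of all genes. No Gstp1 difference between vectors was called in either cell type. Its fitted differences from control were -0.10 with STAT3C and -0.30 with both in C17.2 (SE 0.27), and 0.11 to 0.27 in NSC. Gstp1 has a close relative, Gstp2, and whether these probes tell the pair apart was not tested.

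Hmox1 encodes heme oxygenase, which breaks heme down to biliverdin, iron and carbon monoxide, lies on chromosome 8 from 75093618 to 75100593, and had the widest spread of the members in NSC (SD 0.86 over 18 arrays). The NSC controls read 5.43, 5.26, 6.40, 5.97 and 5.84, and the STAT3C arrays 5.29, 5.37, 5.68 and 6.10. The CEBPB arrays read 4.82 (not detected), 5.26, 5.47 and 5.95. The arrays with both vectors read 6.70, 6.60, 8.31, 7.03 and 7.07. Every double-vector array stood above every other NSC array; 1.64% of genes did so against control and 2.6% against STAT3C. Against CEBPB alone, Hmox1 rose by 1.74 (SE 0.32, 3.33-fold, adjusted p = 0.00568). It was 1 of 2 members called in that contrast, with Gstm5, of 10 tested, where 6.47% of all genes were called and 2.28% did not overlap upward.

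**Figure D4:**
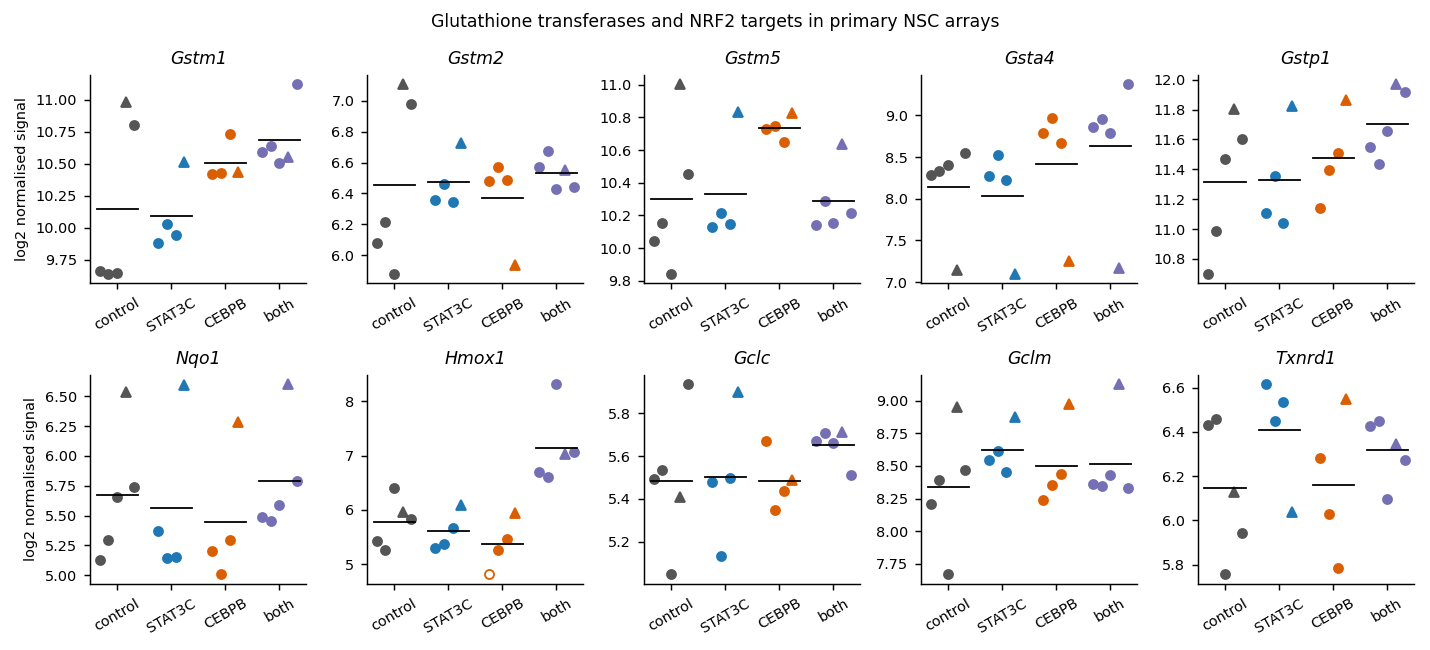
Log2 normalised signal of each gene on the 18 NSC arrays, by vector group, with 1 point per array and the group mean as a bar; triangles mark the 4 arrays without Xist signal and the open point was not detected. Hmox1 with both vectors, at 6.60 to 8.31, lies above all other groups, and the triangles stand apart for Gsta4, Nqo1 and Gclm.

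The Hmox1 rise over CEBPB was 2.02 within slide 5 (SE 0.41, adjusted p = 0.0101) and 1.10 within slide 6, where CEBPB had 1 array. In the authors' deposited normalised values it was 0.51 (SE 0.12, adjusted p = 0.0225). Against control, Hmox1 with both vectors was 1.25 higher (SE 0.41, 2.38-fold), and the adjusted p was 0.115, in a contrast in which 2.84% of genes were called. That difference was called without double-vector replicate 3, the array at 8.31 (1.12, adjusted p = 0.0377), and without slide in the fit (1.36, SE 0.30, adjusted p = 0.0257). Among 10 fits that each left out 1 array, only that without replicate 3 called it, and the highest adjusted p was 0.216. Within slide 6, which held 2 arrays of each of these groups, it was 1.15. Against STAT3C alone it was 1.37 (SE 0.45, adjusted p = 0.230), in a contrast in which 0.341% of genes were called.

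Neither vector alone gave a called Hmox1 difference in NSC, at -0.11 with STAT3C (SE 0.32, adjusted p = 0.963) and -0.48 with CEBPB (SE 0.45, adjusted p = 0.857). The double-vector value exceeded the sum of the single changes by 1.85 (SE 0.45, adjusted p = 0.0974), in a test that 0.0368% of genes passed. Without CEBPB replicate 4 this excess was 2.13 (adjusted p = 0.0363), and without the 4 arrays that lacked Xist it was 2.27 (SE 0.56, adjusted p = 0.0322). Of 18 fits that each left out 1 array, only that without CEBPB replicate 4 called it. The highest adjusted p among them was 0.234, and the smallest excess was 1.45, without double-vector replicate 3. With Xist signal as a term it was 1.94 (SE 0.46, adjusted p = 0.0435), and Hmox1 against CEBPB was 1.78 (SE 0.32, adjusted p = 0.00188).

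In C17.2, Hmox1 with both vectors overlapped the controls. Its controls read 6.27, 4.73 (not detected), 6.97 and 6.92, and its double-vector arrays 6.36, 6.28, 5.23 and 5.65. The STAT3C arrays lay between 5.30 and 5.72 and the CEBPB arrays between 4.92 and 5.54. The double-vector difference was -0.34 (SE 0.39, adjusted p = 0.680). The double-vector change was 1.66 lower in C17.2 than in NSC in the fit of all arrays (-1.66, SE 0.52, adjusted p = 0.100). Without C17.2 control replicate 2, the undetected array, it was -2.20 (SE 0.44, adjusted p = 0.0137). Of 18 fits that each left out 1 array, that 1 alone called it, and the highest adjusted p was 0.232. The 5 genes most like Hmox1 over the 18 NSC arrays were Hs3st1 (r = 0.93), Sipa1l2 (0.93), E030030I06Rik (0.92), Lurap1l (0.89) and Sema6d (0.89), as a description.

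Nqo1 encodes a quinone reductase that is often used as a readout of NRF2, and lies on chromosome 8 from 107388225 to 107403205. A second Nqo1 probe was detected on no array. In NSC, replicate 4 of each group read 6.53 (control), 6.59 (STAT3C), 6.28 (CEBPB) and 6.60 (both), against 5.01 to 5.79 on the other 14 arrays. The 4 arrays without Xist were thus the high ones, and the other 2 arrays of slide 6 read 5.74 and 5.79. Gsta4 and Nqo1 moved in opposite ways over the 18 arrays (Pearson r = -0.77, as a description), a relation in which the 4 arrays stand apart. Gclm was also higher on all 4, at 8.88 to 9.13 against 7.67 to 8.62. For 5.77% of all genes these 4 arrays lay above the other 14, and for 6.83% below them.

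No Nqo1 difference between vectors was called, except that with Xist signal as a term both vectors against CEBPB gave 0.34 (SE 0.11, adjusted p = 0.0496) in NSC. In NSC its differences from control were 0.05 with STAT3C, -0.19 with CEBPB and 0.02 with both (SE 0.19, 0.27 and 0.25). In C17.2 the probe was detected on 12 of 16 arrays, with controls at 4.70 and 4.64 (both not detected), 5.63 and 5.84. The C17.2 differences were 0.47 with STAT3C (SE 0.33, adjusted p = 0.576) and 0.32 with both (SE 0.33, adjusted p = 0.639).

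Gclc and Gclm encode the catalytic and the modifier subunit of glutamate-cysteine ligase, the rate-limiting enzyme of glutathione synthesis. Gclc lies on chromosome 9 from 77754535 to 77794489 and was near background in C17.2. Its controls read 5.22, 5.18, 5.50 and 5.20 and were all detected, and its STAT3C arrays read 4.77, 4.77, 4.99 and 4.59 and were all undetected. The Gclc signal was at least 1.19-fold lower with STAT3C, where the adjusted p was 0.2225. With both vectors, 2 of 4 arrays were undetected, and the difference was -0.34 (SE 0.13, adjusted p = 0.197). Neither group overlapped the controls, as for 3.92% and 3.85% of all genes downward. The double-vector arrays also lay below all CEBPB arrays (-0.30, adjusted p = 0.993), as for 1.09% of genes. With CEBPB the arrays read 5.21, 5.20, 5.32 and 5.19, in the range of the controls. In NSC, Gclc ran from 5.05 to 5.93 with all groups overlapping.

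Gclm in C17.2 read 9.46, 8.67, 9.38 and 9.40 in controls and 8.73, 8.72, 8.77 and 8.79 with STAT3C. The STAT3C arrays lay below 3 of the 4 controls and above the lowest. The difference was -0.48 (SE 0.21, adjusted p = 0.375). With both vectors, replicate 1 at 9.65 was the highest array and the others read 8.70, 8.86 and 8.78. In the joint normalisation, Gclm was at 9.27 ± 0.35 in C17.2 controls (SD, n = 4) and 8.26 ± 0.48 in NSC controls (SD, n = 5), and so 2.01-fold higher in C17.2 (SE 0.22 on the log2 scale, adjusted p = 0.00039). With STAT3C in NSC, Gclm was 0.36 above control (SE 0.17, adjusted p = 0.854), and 0% of genes were called there, 558 having an unadjusted p below 0.05.

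Txnrd1 encodes cytosolic thioredoxin reductase, a selenoenzyme, and lies on chromosome 10 from 82833951 to 82897724. In C17.2 it read 6.11, 5.85, 6.05 and 6.26 in controls, 5.91, 5.88, 6.13 and 6.26 with STAT3C, 6.85, 6.85, 6.47 and 6.65 with CEBPB and 6.53, 7.13, 6.57 and 6.17 with both. All 4 CEBPB arrays were above the controls, as for 8.11% of all genes, and with both vectors 3 of 4 were. The CEBPB difference was 0.64 (SE 0.18), which belongs to the contrast that chose the genes. With both vectors the difference was 0.53 from control (SE 0.18, adjusted p = 0.167) and 0.55 from STAT3C (SE 0.18, adjusted p = 0.302). The mean of chromosome 10 genes, relative to each gene's own mean over the C17.2 arrays, ran from -0.21 to -0.10 in controls, -0.06 to 0.27 with CEBPB and -0.08 to 0.35 with both. With that mean as a covariate, the Txnrd1 difference was 0.21 with CEBPB (SE 0.17) and 0.19 with both (SE 0.15, adjusted p = 0.695). The mean alone set both groups apart from the controls, and Txnrd1 lies on the same chromosome. This fit therefore cannot separate the mean from the vectors, and nothing is drawn from the smaller differences. In NSC, Txnrd1 ran from 5.76 to 6.61 and passed no test.

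**Figure D5:**
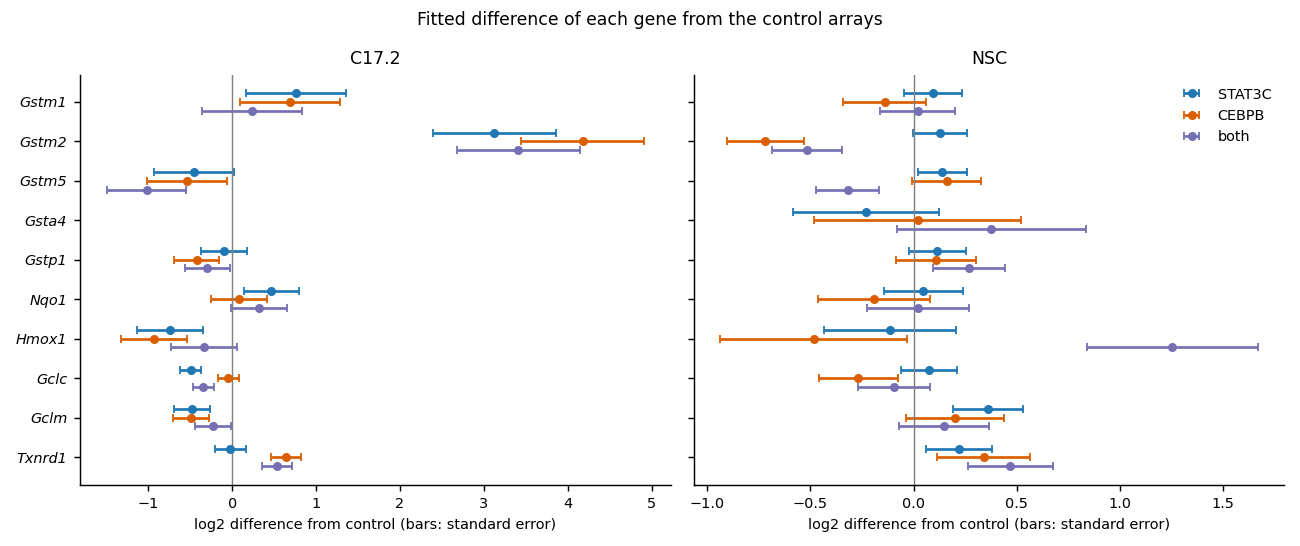
Fitted log2 difference from control of each gene with STAT3C, CEBPB and both vectors in C17.2 (left, no Gsta4) and in NSC (right), as points with the standard error of the fit as bars; the 2 panels have different axes. In C17.2, Gstm2 lies at 3.13 to 4.18, far from the others, and in NSC Hmox1 with both vectors lies at 1.25.

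Over the whole set, no member was called against control in C17.2 with STAT3C or both vectors, and none in NSC with STAT3C, CEBPB or both, contrasts in which 0.0103%, 0.577%, 0%, 0.0276% and 2.84% of genes were called. At an unadjusted p below 0.05 from limma there were 3 and 4 members in the C17.2 pair, beside 12.8% and 17.8% of genes. In NSC there were 1, 1 and 3, beside 5.14%, 8.51% and 17.3%. Both C17.2 counts include Gstm2, and both contrasts use the controls of the contrast that chose the genes. Nothing is read from those C17.2 counts. The median difference of the 10 members in NSC was 0.10 with STAT3C, -0.06 with CEBPB and 0.09 with both, beside 0.02, 0.02 and 0.01 over all genes. In C17.2 the median over 9 members was -0.10 with STAT3C and -0.23 with both, beside -0.01 and 0.01 over all genes.

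The genes around NRF2 were taken from lists chosen with earlier results known. Nfe2l2 itself passed no test between vectors. Its C17.2 means were 6.94 in controls, 7.21 with STAT3C, 6.80 with CEBPB and 6.78 with both, with SDs of 0.15 to 0.49 (n = 4). Its NSC means lay between 8.40 and 8.51. In the control groups Nfe2l2 was 1.23 lower in C17.2 than in NSC (-1.23, SE 0.21, adjusted p = 1.9e-05). Keap1 means lay between 8.76 and 8.91 in C17.2 and between 8.71 and 8.78 in NSC, each normalised separately, and no Keap1 difference was called. Of 13 NRF2 regulators tested between the control groups, 3 were higher in C17.2 (Sqstm1 by 1.56, Bach1 by 0.83 and Dpp3 by 0.64) and 2 lower (Nfe2l2 and Btrc), beside 48.5% of all genes called.

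Few other genes of the pathway were called between vectors. In C17.2, of 84 genes on the 5 further lists, Gpx1 fell with both vectors (-0.61, SE 0.12, adjusted p = 0.0464), and no gene was called with STAT3C. Gpx4, which reduces lipid hydroperoxides, was 0.81 higher with CEBPB (SE 0.17). The C17.2 median over these 84 genes was -0.02 with STAT3C and -0.08 with both. In NSC, of 93 genes, 2 were called with both vectors against control, beside 2.84% of all genes. Sesn2, a stress-induced sestrin, rose by 0.66 (SE 0.16, adjusted p = 0.0419). Blvrb, which encodes biliverdin reductase B, fell by 0.57 (-0.57, SE 0.15, adjusted p = 0.0492). Against CEBPB alone, 4 of the 93 were called: Ggct rose (0.44, SE 0.11), and Blvrb (-0.47, SE 0.11), Txn2 (-0.63, SE 0.11) and the metallothionein Mt2 (-1.31, SE 0.36) fell. That is 4 of 93 beside 6.47% of all genes. In the difference between cell types with both vectors, 6 of 101 list genes were called, beside 1.33% of all genes. In all 6 the change from control was lower in C17.2 than in NSC, which says nothing of their levels. The 6 were Ggct (-1.84), Mgst3 (-1.70), Sesn3 (-1.42), Gpx1 (-0.80), Aldh3a1 and Ugt1a6a. No size is given for Aldh3a1, which was detected on no NSC control array, or for Ugt1a6a, which was near background in C17.2 with CEBPB. With CEBPB it was Ugt1a6a alone, in a contrast where 1.49% of genes were called.

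Between the control groups of the cell types, 29 of 101 genes tested on the 5 further lists were higher and 20 lower in C17.2, beside 48.5% of all genes called, so the lists' share of calls was near that of all genes. Among the other glutathione transferases, 4 of 19 were higher in C17.2 (Gsto1, Mgst3, Gstt2 and Gsta1) and 6 lower (Mgst1, Gstk1, Gstt1, Gstm7, Gstt3 and Gstm3). Gstm3 was near background in both, detected on 0 of 4 C17.2 and 1 of 5 NSC control arrays (means 4.51 and 4.90). Gsto1 was 2.25 higher (SE 0.23, adjusted p = 1.7e-09). Mgst1 and Gstk1, like Gsta4, were detected on no C17.2 control array, and were at least 13.4-fold and 7.22-fold higher in NSC. Among 26 further NRF2 targets, 10 were higher and 4 lower in C17.2. Akr1b8 and Aldh3a1 were detected on no NSC control array and were at least 22.8-fold and 37.2-fold higher in C17.2, while Cbr3 was at least 23.5-fold higher in NSC. Ftl1, the ferritin light chain, was 1.86 higher in C17.2 (SE 0.22, adjusted p = 3.6e-08), and Slc7a11, the cystine transporter, was at least 2.81-fold higher in NSC. Each of the 5 lists held genes higher in C17.2 and genes higher in NSC.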

How the data were processed

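Total RNA from 34 samples was read on Illumina MouseWG-6 v2 bead arrays. The deposited tables give, per probe, a bead-averaged signal intensity, a detection p-value and a bead count for each array. The deposited intensity has background subtracted, as values below 0 show, and is not log-transformed, and the deposited series values are on a log2 scale with a transformation not given in the sources used here. BeadStudio and lumi are named in the submitters' processing notes.

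Intensities were corrected for background and quantile normalised with neqc (limma 3.58.1, R 4.3.3, offset 16), separately for the 16 C17.2 and 18 NSC arrays and jointly for all 34. Probes with 1 symbol (34885 of 45281) and a detection p below 0.05 on at least 4 arrays were kept, with the highest-mean probe per gene. Symbols come from the platform annotation, updated through RefSeq for 34807 probes. Linear models over all vector groups were fitted with lmFit and eBayes, with slide as a fixed term in NSC. P-values are two-sided and adjusted over all genes tested. Bounds use, per array of the dim group, the higher of the lowest signal among detected probes and the probe's own. Each array group's size limits the precision.

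The 10 genes and all lists were chosen with earlier results of these data known. All 10 are named, further list genes are named only where called (between the control groups, examples), and Nfe2l2 and Keap1 always, as are the 5 genes nearest in profile to the member with the widest spread. Stat3, Cebpb, Xist and marker genes are named as checks. The mu-class proteins planned for print are not shown here. Within-group array correlations were 0.92 to 0.998, and 0 array pairs were identical. Alternatives changed the normalisation, filter, probe rule, slide term, covariate and arrays, and 1 alternative, Xist signal as a term in NSC, was chosen after seeing the data.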

Additional observations from a re-analysis of the deposited data

Results flagged for a closer look

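Within groups of 4 or 5 arrays, 13 values stood apart from the rest of their group by Dixon's 95% critical value, of 76 groups tested; chance alone flags about 1 in 20. Of these, 6 came from replicate 4 of NSC groups, the arrays without Xist signal. They were Gstm2 with CEBPB (5.94, against 6.48 to 6.57), Gstm5 with STAT3C (10.84, against 10.13 to 10.22), Gsta4 in control (7.14, against 8.29 to 8.55) and with both vectors (7.17, against 8.79 to 9.38), Nqo1 with STAT3C (6.59, against 5.15 to 5.37) and Gclm with both (9.13, against 8.33 to 8.43).

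In the other NSC arrays, Gstm1 stood apart in CEBPB replicate 3 (10.74, against 10.42 to 10.44) and in double-vector replicate 5 (11.12, against 10.51 to 10.64). Hmox1 did so in double-vector replicate 3 (8.31, against 6.60 to 7.07), and Gclc in double-vector replicate 5 (5.51, against 5.66 to 5.71). In C17.2 the values were Gclc in control replicate 3 (5.50, against 5.18 to 5.22), Gclm in control replicate 2 (8.67, against 9.38 to 9.46) and Gclm in double-vector replicate 1 (9.65, against 8.70 to 8.86).

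The change of Gstm2 differed between the cell types by limma's test of the difference itself, at 4.04 with CEBPB, in a contrast that had chosen the gene, and at 3.15 with both vectors. In both, all C17.2 arrays with the vector lay above the C17.2 controls, and the NSC groups overlapped. Both use the C17.2 controls of that contrast, so neither is independent of how the gene was chosen.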

How the results depend on the processing

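No paired analysis was possible because the labels give no replicate numbers, and numbers in accession order pair nothing. Of 291 recomputed counts of members called, 264 stayed within 1.5 times the main count and 27 moved; the cause was not tested. Of 2861 recomputed differences of single members, 142 changed sign, of which 0 were called in either fit, while 12 lost a call and 22 gained one. Among the sign changes, Gstm2 in NSC with both vectors went from -0.52 to 0.08 against control without a slide term, and Gstm5 in C17.2 with CEBPB to 0.18 with the chromosome 10 covariate. With 1 array left out, the count ran from 0 to 2 for C17.2 CEBPB against control and from 0 to 1 for C17.2 with both vectors. It ran from 1 to 2 for NSC both against CEBPB, from 0 to 1 for NSC both against control and for NSC non-additivity, from 0 to 2 for the double-vector difference between cell types, and from 0 to 1 for the STAT3C difference. Without normexp the C17.2 double-vector count was 1, with slide as a random block 1, and the CEBPB count was 2 with that block and 0 with the chromosome 10 covariate. Without a slide term, NSC both against control and both against CEBPB had 1 each. Without the 4 arrays lacking Xist, both against control had 1, a count that rests on 1 array a group, and non-additivity 2. With Xist signal as a term beside slide, which makes those 4 arrays a block of their own and was chosen after seeing the data, non-additivity had 1. In C17.2, Nqo1 was detected on 12 of 16 arrays and Gclc on 10, so signal over background limits their differences.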
